A study of Mus musculus with 12 samples.

Results

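The erythropoietin receptor and STAT5 pathway was followed as 9 genes in the mouse cell line G1E-ER4: the receptor Epor, the kinases Jak2 and Lyn, the transcription factors Stat5a and Stat5b, the feedback inhibitors Cish, Socs2 and Socs3, and the kinase gene Pim1. They were chosen by symbol, as 9 of the 55487 gene rows of each library, and every symbol was found once. RNA of 12 libraries was sequenced, 3 for each of 4 groups, and the values are TPM, transcript abundance per exon length scaled to a fixed total per library. The groups were 50 µM DTPA (a chelator meant to leave cells short of zinc), 50 µM DFO (a chelator of iron), 0.2 mM SA (an inhibitor of the heme pathway enzyme ALAD, meant to leave cells short of protoporphyrin) and control. All 4 groups, control included, received 100 nM β-estradiol and were harvested at 24 h. G1E-ER4 is a clonal erythroid progenitor line without a functional Gata1 gene of its own with a GATA1 fusion protein that estradiol activates, which starts maturation. The labels list 2 U/mL erythropoietin, 15% serum and medium conditioned by cells that make Kit ligand for its upkeep. That entry is the same for every group, but it describes upkeep and is not read here as the medium during treatment. The labels call the 3 libraries of a group biological replicates without saying how the cultures were separated, and p-values measure only the spread between these libraries.

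Erythropoietin, made mainly by the kidney, keeps late erythroid progenitors alive. It binds the dimeric receptor EPOR, whose bound kinase JAK2 phosphorylates the receptor tail and then STAT5A and STAT5B, which enter the nucleus and switch on survival genes. Among the genes switched on are Cish and the SOCS genes, whose proteins bind the activated receptor or JAK2 and damp the signal. Epor itself is a known target of GATA1 in erythroid cells. The comparisons with control ask how this pathway's transcripts stand after treatments meant to leave maturing cells short of zinc, iron or protoporphyrin. These data hold no measure of zinc, iron or protoporphyrin. Transcript levels say nothing about phosphorylation, which carries the signal.

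Promoter sequences are shown for Epor, Cish and Socs3, the members with the largest differences among the receptor and the inhibitors under DTPA. Each window holds 250 bases before and 50 after the RefSeq gene start on GRCm38.p6, 5′ to 3′ on the gene's strand, and positions count from 1 at the first base after the 250 upstream bases. Capitals mark the STAT motif TTCNNNGAA, which reads the same on both strands, and the GATA motif (AGATAA or the same with G as its last base, T as its first base or both, on either strand). The Epor window lies at chr9:21963527-21963826 on the minus strand, the Cish window at chr9:107296409-107296708 on the plus strand and the Socs3 window at chr11:117969317-117969616 on the minus strand. Gene spans given below come from GENCODE M21 and not RefSeq, and the Epor window lies wholly beyond the Epor span, which ends at 21963506.
Epor: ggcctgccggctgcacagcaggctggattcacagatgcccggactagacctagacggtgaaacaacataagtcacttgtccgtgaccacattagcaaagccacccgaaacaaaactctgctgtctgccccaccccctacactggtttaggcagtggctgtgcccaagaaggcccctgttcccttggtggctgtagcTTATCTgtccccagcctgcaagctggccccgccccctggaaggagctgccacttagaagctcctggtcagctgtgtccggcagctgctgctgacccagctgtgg
Cish: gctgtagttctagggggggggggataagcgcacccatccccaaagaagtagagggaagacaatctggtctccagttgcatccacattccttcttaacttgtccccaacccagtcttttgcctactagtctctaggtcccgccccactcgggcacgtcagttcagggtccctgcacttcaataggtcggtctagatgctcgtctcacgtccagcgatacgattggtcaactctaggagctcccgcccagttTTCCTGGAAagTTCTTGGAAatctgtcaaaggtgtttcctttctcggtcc
Socs3: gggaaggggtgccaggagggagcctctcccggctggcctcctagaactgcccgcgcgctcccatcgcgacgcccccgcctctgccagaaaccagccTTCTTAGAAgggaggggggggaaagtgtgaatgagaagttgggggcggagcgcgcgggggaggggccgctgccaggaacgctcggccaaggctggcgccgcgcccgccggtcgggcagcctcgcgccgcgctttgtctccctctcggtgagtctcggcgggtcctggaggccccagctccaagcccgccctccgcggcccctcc
The Epor window held 1 GATA match, TTATCT at position -54, and no STAT match. The Cish window held 2 STAT matches, TTCCTGGAA at position 1 and TTCTTGGAA at position 12. The Socs3 window held TTCTTAGAA at position -154. Of 32851 RefSeq mouse promoter windows of the same length, 8.3% held at least 1 STAT match, 0.457% held 2 or more, and 29.8% held a GATA match. Windows were given for 7 of the 9 members, and none of those of Jak2, Stat5a, Stat5b and Pim1 held either motif. Windows for Lyn and Socs2 were not used here. These matches are letters in a window and not measured binding sites.

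The files gave no counts. Exon length times TPM came out as whole reads (within 0.1 read) for at least 98.7% of values up to 200 reads. This puts between 19860144 and 24329311 reads per library on the 53186 of 55367 symbols with a unique exon length, and reads of the other symbols are not included. Summed erythroid marker TPM, over 12 of 12 tested markers, ranged over 44329 to 54110 with DTPA, 29082 to 31472 with DFO, 23989 to 25926 with SA and 39457 to 43806 in control. Globin rows hold most of these sums, and Hbb-bt alone had 11222 TPM in DTPA replicate 1, against 4004 and 2782 TPM in the other DTPA libraries. Without globins, the 9 other markers summed to between 6187 and 6201 TPM with DTPA, 7744 and 7848 TPM with DFO, 7029 and 7157 TPM with SA, and 7940 and 8252 TPM in control. Megakaryocyte markers summed to between 79.7 and 90.3 TPM with DTPA, against 28.9 to 32.2 TPM in control, with Ppbp, Gp6, Gp1bb and Thbs1 among the markers listed at 0 in every library. Of 14 such markers 5 were tested. Fli1 held most of the control sum, at 21.3 ± 1.43 TPM, against 43.6 ± 0.699 TPM with DTPA. Itgb3 averaged 17.0 ± 0.843 TPM with DTPA and 2.15 ± 0.189 TPM in control, and Gp1ba 18.5 ± 3.15 TPM with DTPA and 4.30 ± 0.463 TPM in control. Mast and myeloid markers summed to between 41.3 and 48.3 TPM with DTPA, against 26.0 to 28.3 TPM in control. For these, 2 of 22 were tested, Gata2 and Hdc, and Mpo, Lyz2 and Itgam were among 12 listed at 0. Gata2 held most of these sums, at 42.6 ± 3.36 TPM with DTPA, 35.9 ± 1.50 TPM with SA and 26.6 ± 1.29 TPM in control. Hdc reached 1 TPM in DTPA libraries only and so was tested only because it was high there. Lymphoid markers stayed at or under 2.33 TPM in sum in every library. DFO and SA libraries summed to between 27.3 and 34.2 TPM for megakaryocyte markers and between 27.5 and 37.9 TPM for mast and myeloid markers. The part of these marker shifts in the results below was not tested, and in bulk RNA fewer cells of a type and less RNA per cell cannot be told apart.

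The pathway was expressed in every group, from the PIM1 kinase transcript at the top to Socs3 at the bottom. In control, Pim1 averaged 624 ± 8.18 TPM (SD, n = 3 in this and every group mean below), Stat5b 205 ± 6.42 TPM, Epor 153 ± 2.39 TPM and Cish 132 ± 2.97 TPM. Jak2 followed at 62.0 ± 2.41 TPM and Lyn at 30.8 ± 0.583 TPM. Socs2 at 16.8 ± 0.578 TPM and Stat5a at 16.0 ± 0.733 TPM overlapped in their libraries, and Socs3 stood at 4.17 ± 0.156 TPM. These levels divide reads by the whole annotated exon length, 6419 bases for Cish and 1989 bases for Epor. The order of genes depends on these lengths, and control replicate 1 held 5980 recovered reads for Cish and 2201 for Epor. All 9 members passed the filter for testing, at least 1 TPM in at least 3 libraries, in every comparison.

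**Figure D1:**
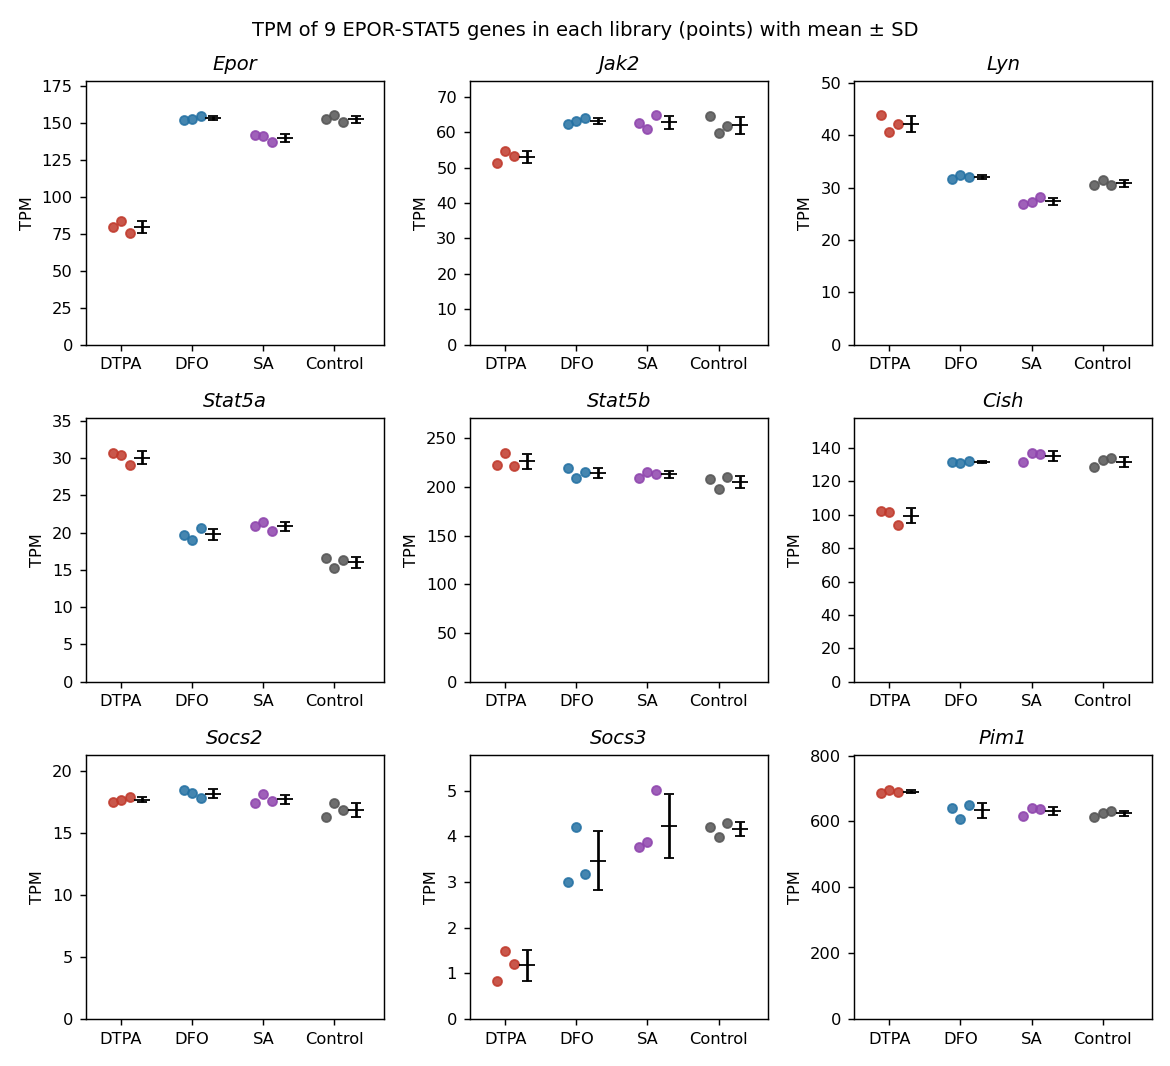
TPM of each of the 9 pathway genes (y axis, from 0) in the 3 libraries of the DTPA, DFO, SA and control groups (x axis); points are libraries and bars the mean ± SD. Epor, Jak2, Cish and Socs3 lie lower and Lyn and Stat5a higher in all 3 DTPA libraries than in all 3 control libraries, while most DFO and SA points lie near control.

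DTPA changed the pathway in both directions: the receptor, its kinase JAK2 and the inhibitors Cish and Socs3 fell, while Lyn, both STAT5 genes and Pim1 rose. Of the 9 members, 8 were called in the comparison of DTPA with control (4 higher, 4 lower), where 65.5% of the 11920 tested genes were called, 23.5% higher and 42.1% lower. Calls are adjusted p-values under 0.05 from limma on log2(TPM + 1) over all 12 libraries with Benjamini-Hochberg adjustment over all tested genes. DTPA libraries lay wholly above or below control libraries for 9 of 9 members, and did so for 69.5% of all tested genes, so the count of members is set against a high background. The median log2 fold change of the members was 0.064, and that of all tested genes was -0.113. The 3 comparisons with control share the same 3 control libraries.

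Epor, the receptor gene, had 79.4, 83.7 and 75.5 TPM in the DTPA libraries, against 153, 155 and 150.45 TPM in the control libraries. Every DTPA library lay far below every control library. The mean was 79.5 ± 4.12 TPM with DTPA and 153 ± 2.39 TPM in control, a log2 fold change of -0.93 (95% interval -1.01 to -0.86, adjusted p = 2.81e-10 by limma), and control was 1.92 times as high. On GRCm38, Epor lies on chromosome 9 from 21958897 to 21963506.

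Jak2, which encodes the kinase bound to the receptor, had 51.2, 54.6 and 53.2 TPM in DTPA libraries, against 64.5, 59.7 and 61.9 TPM in control libraries. The groups did not overlap, and the difference was small (log2 fold change -0.22, 95% interval -0.30 to -0.15, adjusted p = 0.00014 by limma). Lyn, which encodes a SRC family kinase that also associates with the receptor, had 43.8, 40.6 and 42.1 TPM in DTPA libraries, against 30.5, 31.5 and 30.4 TPM in control libraries. All 3 DTPA libraries lay above control (log2 fold change 0.44, 95% interval 0.37 to 0.51, adjusted p = 2.68e-07 by limma). Jak2 lies on chromosome 19 from 29251828 to 29313080 and Lyn on chromosome 4 from 3678115 to 3813122.

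The STAT5 genes, neighbours on chromosome 11, did not move by the same amount. Stat5a had 30.7, 30.4 and 29.0 TPM in DTPA libraries, against 16.6, 15.2 and 16.4 TPM in control libraries. Every DTPA library was above every control library, and the mean was 1.87 times as high (log2 fold change 0.87, 95% interval 0.77 to 0.96, adjusted p = 8.26e-09 by limma). Stat5b had 222, 235 and 221 TPM in DTPA libraries, against 208, 198 and 210.0 TPM in control libraries. Its groups also did not overlap, with a log2 fold change of 0.14 (95% interval 0.072 to 0.21, adjusted p = 0.00172 by limma).

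The inhibitor genes split. Cish, whose protein binds phosphorylated receptor and is a textbook STAT5 target, had 102, 102 and 94.1 TPM in DTPA libraries, against 128, 133 and 134 TPM in control libraries. All 3 DTPA libraries lay below control, with a log2 fold change of -0.41 (95% interval -0.48 to -0.34, adjusted p = 3.77e-07 by limma). Socs3, whose protein blocks JAK activity, had 0.826, 1.50 and 1.21 TPM in DTPA libraries, against 4.20, 4.00 and 4.30 TPM in control libraries. This is the least expressed member, and those values rest on 17, 35 and 28 recovered reads with DTPA, against 88, 88 and 87 reads in control. The groups did not overlap (log2 fold change -1.26, 95% interval -1.58 to -0.94, adjusted p = 9.85e-06 by limma), and mean TPM was 3.54 times as high in control. The size of this log2 fold change depended on the pseudocount, at -1.78 with 0.1 and -0.57 with 5, and was -1.75 by voom on recovered reads, with the call kept each time.

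Socs2, which encodes another inhibitor of the family, had 17.5, 17.6 and 17.9 TPM in DTPA libraries, against 16.2, 17.4 and 16.9 TPM in control libraries. The DTPA values lay just above the control values, and the difference did not pass (log2 fold change 0.064, 95% interval -0.016 to 0.14, adjusted p = 0.145 by limma). Socs2 was called higher when libraries were rescaled by the median of ratios (0.19, adjusted p = 0.000943) or by a trimmed mean (0.19, adjusted p = 0.0011) and by voom on recovered reads (0.14, adjusted p = 0.00269). Those rescalings move the median of all genes, -0.113 on the TPM scale, to 0.0019 and -0.00065, so values relative to other genes are higher than the TPM differences given here. With the median of ratios, the log2 fold change was -0.091 for Jak2 (adjusted p = 0.0152 by limma), 0.27 for Stat5b (adjusted p = 2.01e-06 by limma), 0.28 for Pim1 (adjusted p = 1.97e-06 by limma) and -0.27 for Cish (adjusted p = 3.59e-05 by limma).

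Pim1, which encodes a kinase that promotes survival and is a STAT5 target, had 688, 696 and 688 TPM in DTPA libraries, against 615, 626 and 631 TPM in control libraries. All DTPA libraries were above control by a small amount (log2 fold change 0.15, 95% interval 0.092 to 0.20, adjusted p = 0.000262 by limma). The 8 called members kept direction and call under every alternative run in this comparison in which they were tested; Socs3 was not tested at a filter of 5 TPM.

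**Figure D2:**
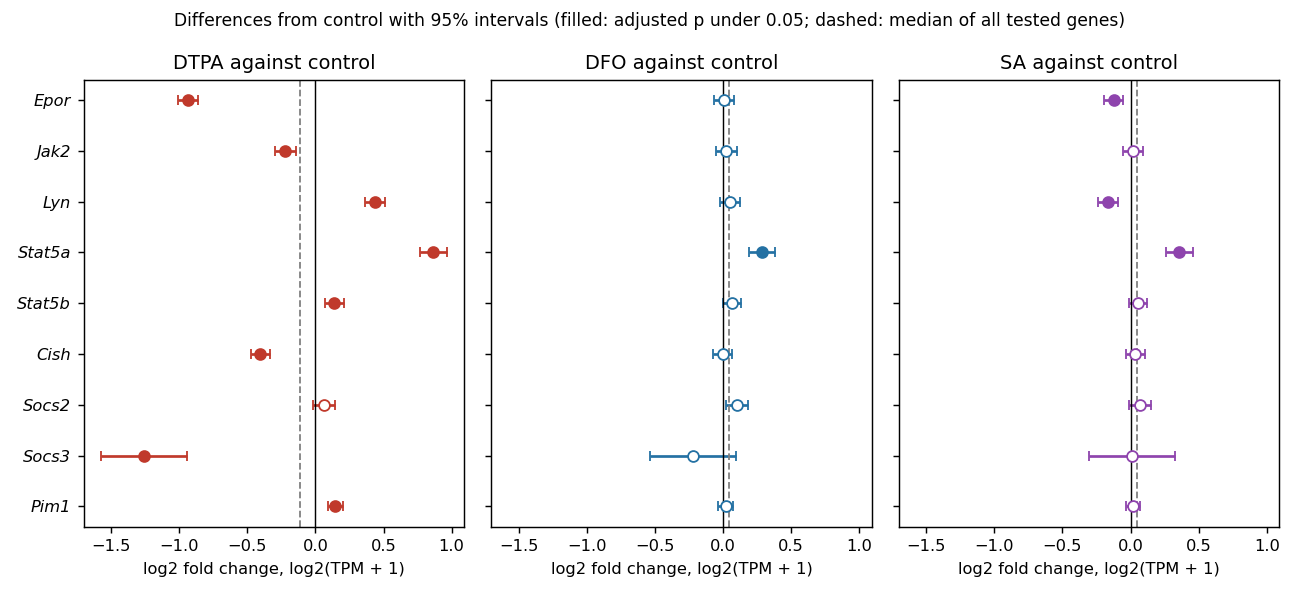
Log2 fold change on the log2(TPM + 1) scale (x axis) of each pathway gene for DTPA, DFO and SA against control, with 95% intervals; filled points passed an adjusted p of 0.05, and the dashed line is the median of all 11920 tested genes. DTPA moved 8 members past the threshold, from -1.26 for Socs3 to 0.87 for Stat5a, against 1 with DFO and 3 with SA.

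**Figure D3:**
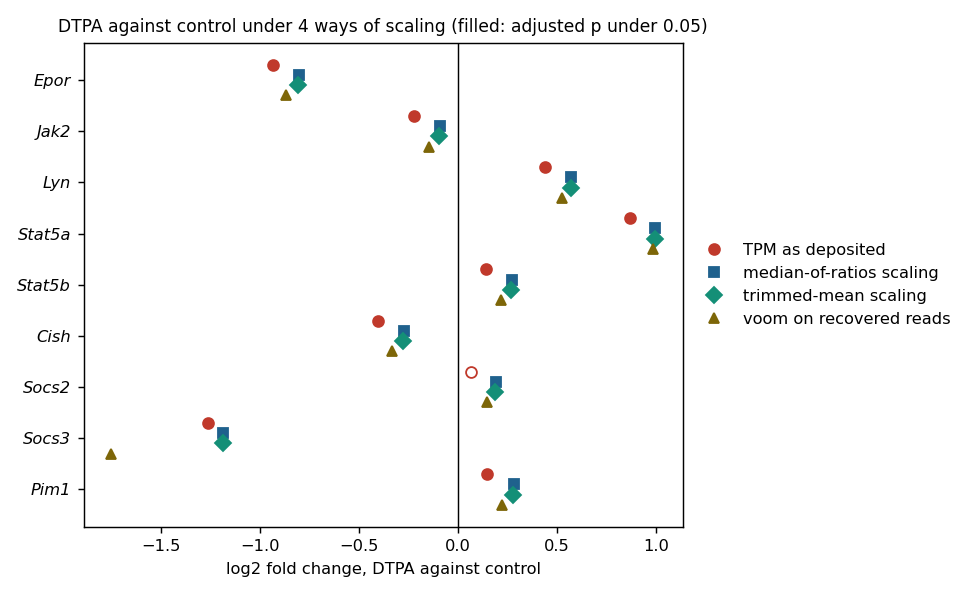
Log2 fold change for DTPA against control (x axis) of each pathway gene with TPM as deposited, after 2 rescalings and by voom on recovered reads; filled symbols passed an adjusted p of 0.05. Directions held for all 9 genes, the rescaled values lie to the right of the TPM values, and Socs2 is filled in all but the TPM fit.

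DFO, the iron chelator, left 8 of the 9 members short of the threshold. Only Stat5a was called, where 10.7% of all tested genes were called, 8.39% higher and 2.28% lower. Stat5a had 19.7, 19.1 and 20.6 TPM with DFO, against 16.6, 15.2 and 16.4 TPM in control. All DFO libraries lay above control (log2 fold change 0.29, 95% interval 0.19 to 0.38, adjusted p = 0.00257 by limma), and the call held in every alternative run. DFO and control libraries did not overlap for 3 members, Stat5a, Lyn and Socs2, against 30.2% of all tested genes.

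Epor had 152, 153 and 155 TPM with DFO, against 153, 155 and 150.45 TPM in control, and the 95% interval of its log2 fold change ran from -0.065 to 0.079. Jak2 (62.3 to 63.9 TPM with DFO, 59.7 to 64.5 TPM in control), Cish (131 to 132 TPM with DFO, 128 to 134 TPM in control) and Pim1 (609 to 651 TPM with DFO, 615 to 631 TPM in control) overlapped between the groups. Their log2 fold changes were 0.025 for Jak2, -0.0016 for Cish and 0.021 for Pim1. Socs3 had 3.01, 4.21 and 3.19 TPM with DFO, against 4.20, 4.00 and 4.30 TPM in control. Its interval, -0.54 to 0.097, is the widest of the members, so a moderate fall could not be detected at this depth. Socs2 (0.10, adjusted p = 0.103 by limma), Stat5b (0.065, adjusted p = 0.215 by limma) and Lyn (0.052, adjusted p = 0.369 by limma) had log2 fold changes just above 0. The count of all genes called fell to between 840 and 847 when any 1 DFO library was left out, against 1272 with all 12.

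SA, the ALAD inhibitor, moved Stat5a up and Epor and Lyn down. These 3 of 9 members were called, where 22.2% of all tested genes were called, 15.4% higher and 6.74% lower. SA and control libraries did not overlap for 4 members, against 38.5% of all tested genes. Stat5a had 20.9, 21.4 and 20.2 TPM with SA, against 16.6, 15.2 and 16.4 TPM in control (log2 fold change 0.36, 95% interval 0.26 to 0.46, adjusted p = 0.000191 by limma). Lyn had 26.8, 27.2 and 28.1 TPM with SA, against 30.5, 31.5 and 30.4 TPM in control (log2 fold change -0.17, 95% interval -0.24 to -0.091, adjusted p = 0.00463 by limma). The SA libraries lay wholly above control for Stat5a and wholly below it for Lyn. Both calls held in every alternative run.

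Epor had 142, 141 and 137 TPM with SA, against 153, 155 and 150.45 TPM in control, a log2 fold change of -0.12 (95% interval -0.20 to -0.052, adjusted p = 0.0192 by limma). The groups did not overlap, but the call was lost without control replicate 2 (-0.11, adjusted p = 0.0645) or without SA replicate 3 (-0.11, adjusted p = 0.0711). The other 6 members did not pass. Cish had 131 to 137 TPM with SA and 128 to 134 TPM in control, and Pim1 617 to 639 TPM with SA and 615 to 631 TPM in control. Socs3 had 3.78, 3.88 and 5.03 TPM with SA, against 4.20, 4.00 and 4.30 TPM in control, with a 95% interval of the log2 fold change from -0.31 to 0.33. Log2 fold changes of Jak2 (0.018), Stat5b (0.052) and Socs2 (0.067) were close to 0.

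Set against each other, the treatments gave 8 called members for DTPA against DFO and 8 for DTPA against SA, each time with 4 higher and 4 lower and Socs2 not passing. Socs2 was -0.038 against DFO and -0.0032 against SA, and rescaling by the median of ratios turned its sign and called it higher, at 0.14 against DFO (adjusted p = 0.00684 by limma) and 0.18 against SA (adjusted p = 0.00152 by limma). Of all tested genes, 65.9% were called for DTPA against DFO (19.5% higher, 46.4% lower) and 67.1% for DTPA against SA (20.1% higher, 47% lower). Epor was lower with DTPA than with DFO (log2 fold change -0.94, adjusted p = 2.88e-10 by limma) and than with SA (-0.81, adjusted p = 9.48e-10 by limma). Stat5a was higher with DTPA than with DFO (0.58, adjusted p = 3.04e-07 by limma) and than with SA (0.51, adjusted p = 9.6e-07 by limma). The differences of Epor and Stat5a from control with DTPA were thus larger than with either other treatment by direct test. Socs3 was lower with DTPA than with DFO (-1.04, adjusted p = 4.98e-05 by limma) and than with SA (-1.27, adjusted p = 9.06e-06 by limma), and Cish likewise (-0.40, adjusted p = 3.99e-07, and -0.44, adjusted p = 1.8e-07, by limma). Lyn was higher with DTPA than with DFO (0.39, adjusted p = 8.54e-07 by limma) and than with SA (0.61, adjusted p = 1.57e-08 by limma), and Pim1 by 0.13 in both comparisons. With the median of ratios the value for Pim1 was 0.31 against DFO and 0.32 against SA, and that for Cish -0.22 against DFO and -0.25 against SA.

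For Jak2 and Stat5b, too, these differences between treatments depended on the processing. Jak2 was lower with DTPA than with DFO (-0.25, adjusted p = 5.77e-05 by limma), but missed the threshold once libraries were rescaled by the median of ratios (-0.062, adjusted p = 0.0798) or the trimmed mean (-0.070, adjusted p = 0.0511). Against SA its value was -0.24 (adjusted p = 7.1e-05 by limma), and -0.053 (adjusted p = 0.132) and -0.061 (adjusted p = 0.0819) after the same rescalings. Stat5b was higher with DTPA than with DFO (0.075, adjusted p = 0.0491 by limma) and lost the call without DTPA replicate 2 (0.047, adjusted p = 0.2), DFO replicate 2 (0.057, adjusted p = 0.165) or DFO replicate 3 (0.077, adjusted p = 0.0869), with no filter on low values (adjusted p = 0.0828) and with only the 6 libraries compared (adjusted p = 0.0743). Against SA (0.087, adjusted p = 0.0253 by limma) it lost the call without DTPA replicate 2 (0.059, adjusted p = 0.109) or SA replicate 1 (0.075, adjusted p = 0.0847). Rescaled by the median of ratios, Stat5b was 0.26 higher with DTPA than with DFO and 0.28 higher than with SA on the log2 scale, and both were called.

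Between DFO and SA, 2 of 9 members were called, where 13.5% of all tested genes were called, 7.21% higher and 6.31% lower. Lyn was higher with DFO than with SA (log2 fold change 0.22, 95% interval 0.14 to 0.29, adjusted p = 0.00146 by limma). Epor was higher with DFO (0.13, 95% interval 0.059 to 0.20, adjusted p = 0.0222 by limma), a call lost without DFO replicate 2 (0.13, adjusted p = 0.0578), DFO replicate 3 (0.12, adjusted p = 0.0727), SA replicate 2 (0.14, adjusted p = 0.0533) or SA replicate 3 (0.12, adjusted p = 0.0807). For the other 7 members the 95% intervals of the difference included 0. That of Stat5a ran from -0.17 to 0.027 and that of Cish from -0.11 to 0.034.

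The order of the 4 groups differed from member to member. For Epor it ran from DTPA (lowest) through SA to control and DFO, and the test did not separate control from DFO (adjusted p = 0.918 by limma). For Stat5a control was lowest, DFO and SA followed, not separated by the test (adjusted p = 0.343 by limma), and DTPA was highest. Lyn ran from SA through control and DFO to DTPA, and DFO and control, though their libraries did not overlap, did not pass (adjusted p = 0.369 by limma). For Jak2, Cish and Socs3 DTPA was lowest and no neighbouring pair among the other 3 groups passed. For Stat5b and Pim1 DTPA was highest and the neighbouring pairs among the other groups did not pass. For Socs2 no neighbouring pair passed on the TPM scale, and its order turned under the rescalings, where DTPA was called above SA and control.

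Relative to Stat5b, Stat5a was higher in every treated library than in every control library. The ratio of Stat5b TPM to Stat5a TPM was 7.53 ± 0.265 with DTPA, 10.9 ± 0.365 with DFO, 10.2 ± 0.328 with SA and 12.8 ± 0.236 in control. Its size depends on the exon lengths, 5539 bases for Stat5b and 7133 bases for Stat5a, which are the same in every group. By library the ratio was 7.23, 7.73 and 7.63 with DTPA, 11.2, 11.0 and 10.5 with DFO, 10.0, 10.1 and 10.6 with SA, and 12.6, 13.0 and 12.8 in control. No treated library reached the control range, and the DTPA libraries were lowest. The log2 balance of Stat5a over Stat5b was 0.73 higher with DTPA, 0.22 higher with DFO and 0.31 higher with SA than in control, each with p = 0.1 by an exact two-sided permutation test, the smallest p that 3 against 3 libraries allow.

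The STAT5 genes lie head to head on chromosome 11, Stat5b from 100780731 to 100850724 on the minus strand and Stat5a from 100859351 to 100885169 on the plus strand, 8627 bases apart. Of the 50-base words of Stat5a transcripts, 8.21% also occur in Stat5b, and 11% the other way round, so a small part of their reads could be assigned to either gene. The far end of Stat5a overlaps the span of Stat3 by 72 bases on the other strand. Cish overlaps the pseudogene Gm17040 on the other strand (mean 6.66 TPM over all libraries) and Pim1 the antisense gene Gm26885 (2.20 TPM). The libraries were made with a stranded kit, and the strand setting of the counting is not given in the sources used here.

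**Figure D4:**
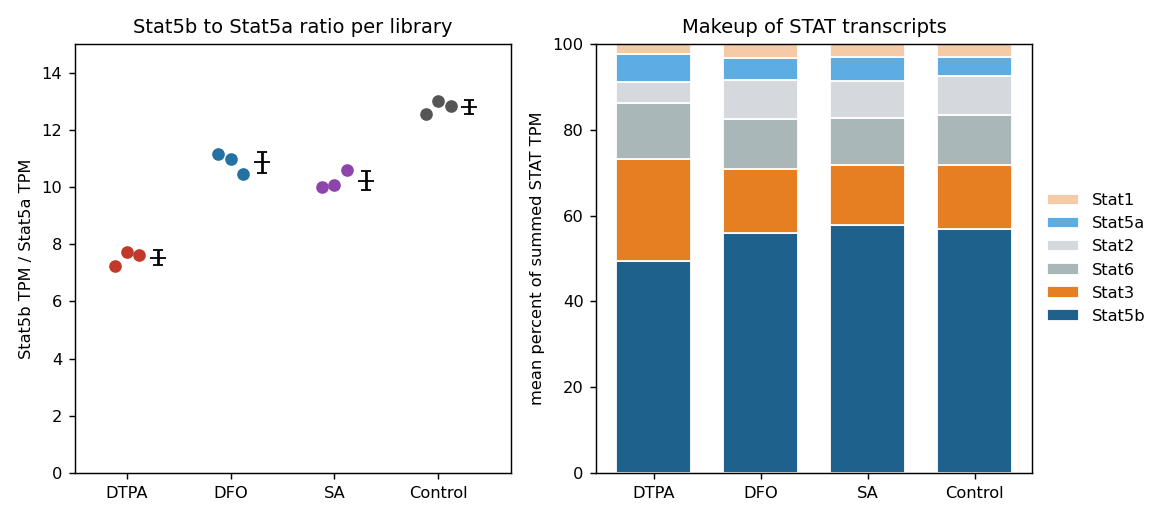
Left, the ratio of Stat5b TPM to Stat5a TPM (y axis, from 0) in each library of the DTPA, DFO, SA and control groups with mean ± SD; right, the mean percent of summed STAT TPM held by each STAT gene. The DTPA ratios, 7.23 to 7.73, lie below all others, and Stat3 held 23.7% of STAT TPM with DTPA against 15.05% in control.

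Among the relatives of the members, DTPA gave higher levels of Jak1 and Stat3. Jak1, the kinase of many other cytokine receptors, averaged 370 ± 8.78 TPM with DTPA and 239 ± 4.69 TPM in control (log2 fold change 0.63, adjusted p = 1.86e-09 by limma). With Jak2 lower, Jak2 held 11.5% ± 0.105 of summed JAK TPM with DTPA and 18.4% ± 0.280 in control, shares that also depend on exon lengths. Stat3, the main factor below gp130-type receptors, averaged 108 ± 2.56 TPM with DTPA and 54.4 ± 0.764 TPM in control (0.98, adjusted p = 4.17e-11 by limma). Stat2, a factor of interferon signalling, averaged 22.7 ± 0.715 TPM with DTPA and 33.1 ± 1.67 TPM in control (-0.53, adjusted p = 4.28e-07 by limma). The 6 tested STAT genes, the members Stat5a and Stat5b included, gave 4 higher, 1 lower and 1 not past the threshold. Of the 4 outside the members, 2 were higher, 1 lower and 1 did not pass. Over all tested genes 23.5% were higher and 42.1% lower. Summed STAT TPM was 458 ± 13.0 with DTPA and 361 ± 5.66 in control. Stat5b held 49.4% ± 0.367 of it with DTPA and 56.8% ± 0.919 in control.

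Of the 8 CISH and SOCS genes, 4 fell with DTPA, 2 rose and 2 did not pass (3 fell and 3 rose after median-of-ratios scaling). Of the 5 outside the 9 members, 2 fell, 2 rose and 1 did not pass. On the TPM scale 42.1% of all tested genes were lower and 23.5% higher with DTPA, so the TPM counts over all 8 are close to the background. Shares of all genes called after rescaling are not given in this report, so rescaled list counts here and below have no background beside them. Socs7 averaged 37.7 ± 1.54 TPM with DTPA and 70.7 ± 3.19 TPM in control (log2 fold change -0.89, adjusted p = 1.8e-09 by limma), and Socs5 averaged 7.32 ± 0.707 TPM with DTPA and 3.72 ± 0.311 TPM in control (0.82, adjusted p = 1.34e-05 by limma). Summed TPM of the family was 193 ± 6.42 with DTPA and 259 ± 4.64 in control. Cish held 51.4% ± 1.16 of it with DTPA and 51.0% ± 1.22 in control, shares that differ by less than their spread. On the TPM scale limma called 0 of 8 CISH and SOCS genes with DFO and 0 with SA, with 2 at an unadjusted p under 0.05 with DFO and 1 with SA. Of all tested genes, 10.7% were called with DFO and 22.2% with SA. Limma after median-of-ratios scaling, and voom on recovered reads, each called 0 with DFO and 1, lower, with SA. Pim1 held 98.5% ± 0.112 of summed PIM TPM with DTPA and 98.5% ± 0.0478 in control, and Pim3 was listed at 0.

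Of 12 tested cytokine and growth factor receptor genes outside the members, 8 were called higher, 1 lower and 3 did not pass with DTPA, against 23.5% higher and 42.1% lower over all tested genes. Igf1r and Csf2ra reached 1 TPM in DTPA libraries only and so were tested only because they were high there. Without them 6 of 10 were higher, 1 lower and 3 did not pass, with a median log2 fold change of 0.33. Kit, the receptor for stem cell factor, averaged 26.7 ± 0.735 TPM with DTPA and 5.83 ± 0.199 TPM in control (2.02, adjusted p = 6.79e-12 by limma). Il2rg, the common gamma chain, averaged 8.16 ± 0.823 TPM with DTPA and 1.51 ± 0.189 TPM in control (1.87, adjusted p = 4.64e-07 by limma). Igf1r, the receptor for insulin-like growth factor, averaged 5.21 ± 0.153 TPM with DTPA, 0.569 ± 0.0179 TPM with DFO, 0.420 ± 0.0341 TPM with SA and 0.364 ± 0.0901 TPM in control, given as a description.

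Csf2rb, the beta chain shared by the receptors for interleukin-3 and GM-CSF, and its mouse relative Csf2rb2 were among the most abundant genes of the pathway lists. Csf2rb averaged 1809 ± 37.6 TPM with DTPA and 1016 ± 23.9 TPM in control (log2 fold change 0.83, adjusted p = 6.09e-11 by limma). Csf2rb2 averaged 2578 ± 44.5 TPM with DTPA and 1289 ± 69.5 TPM in control (1.00, adjusted p = 4.85e-10 by limma). They share 12.3% of the 50-base words of Csf2rb and 18.4% of those of Csf2rb2, and the division of these reads is not known. Tfr2, which binds EPOR and escorts it to the cell surface, averaged 20.4 ± 1.39 TPM with DTPA and 15.9 ± 0.867 TPM in control (0.34, adjusted p = 0.000858 by limma). Of the 5 genes listed as EPOR trafficking and partners, 3 rose and 2 fell, against 23.5% higher and 42.1% lower over all tested genes.

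Of 20 adaptors and downstream kinases, 10 were higher, 9 lower and 1 did not pass with DTPA on the TPM scale. Over all tested genes 23.5% were higher and 42.1% lower on that scale. The median log2 fold change of the list was 0.099, against -0.113 over all tested genes. After median-of-ratios scaling 11 of the 20 were higher and 6 lower, without a share over all genes for that scaling. The largest difference was in Vav1, a guanine nucleotide exchange factor of blood cells, at 147 ± 2.79 TPM with DTPA and 17.2 ± 1.72 TPM in control (3.02, adjusted p = 9.23e-12 by limma). The related kinases Tec and Btk also rose, Tec to 20.8 ± 1.45 TPM with DTPA, against 6.68 ± 0.427 TPM in control, and Btk to 33.7 ± 1.55 TPM with DTPA, against 14.5 ± 1.62 TPM in control. Shc1, Gab1, Crkl and Ptpn11 were among those that fell, with log2 fold changes between -0.69 and -0.50; these 4 were named after their values were seen.

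Of 11 listed inhibitors outside the SOCS family, 2 rose, 4 fell and 5 did not pass with DTPA, and 6 rose and 4 fell after median-of-ratios scaling. On the TPM scale 23.5% of all tested genes were higher and 42.1% lower. Inpp5d, which encodes the lipid phosphatase SHIP1, averaged 280 ± 6.62 TPM with DTPA and 67.9 ± 0.219 TPM in control (log2 fold change 2.03, adjusted p = 1.9e-13 by limma). Spred2 averaged 15.3 ± 0.371 TPM with DTPA and 21.6 ± 0.595 TPM in control (-0.48, adjusted p = 1.85e-07 by limma), and Spred1 17.5 ± 0.379 TPM with DTPA and 22.6 ± 1.21 TPM in control (-0.35, adjusted p = 1.94e-05 by limma). Both encode repressors of the RAS pathway, and Spred2 is also counted among the STAT5 targets below.

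Genes known as STAT5 or erythropoietin targets did not move one way with DTPA. Of 16 tested, 5 rose, 7 fell and 4 did not pass (6 rose and 6 fell after median-of-ratios scaling). On the TPM scale 23.5% of all tested genes were higher and 42.1% lower. The targets' median log2 fold change on that scale was -0.035, against -0.113 over all tested genes. Erfe, which encodes the hormone erythroferrone that lets erythroid cells lower hepcidin, averaged 1.72 ± 0.455 TPM with DTPA and 20.4 ± 3.07 TPM in control (-2.98, adjusted p = 1.24e-09 by limma). Tnfrsf13c, a receptor of the tumour necrosis factor family, averaged 59.5 ± 2.48 TPM with DTPA and 27.6 ± 1.93 TPM in control (1.08, adjusted p = 6.69e-08 by limma). Myc averaged 18.4 ± 2.09 TPM with DTPA and 8.99 ± 1.47 TPM in control (0.96, adjusted p = 2.2e-05 by limma). Bcl2l1, which encodes the survival protein BCL-XL, averaged 153 ± 1.25 TPM with DTPA and 187 ± 1.25 TPM in control (-0.29, adjusted p = 1.75e-08 by limma). Mcl1, of the same protein family, averaged 313 ± 8.77 TPM with DTPA and 423 ± 14.3 TPM in control (-0.43, adjusted p = 6.12e-08 by limma). Bcl2l1 and Mcl1 were named after their values were seen.

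**Figure D5:**
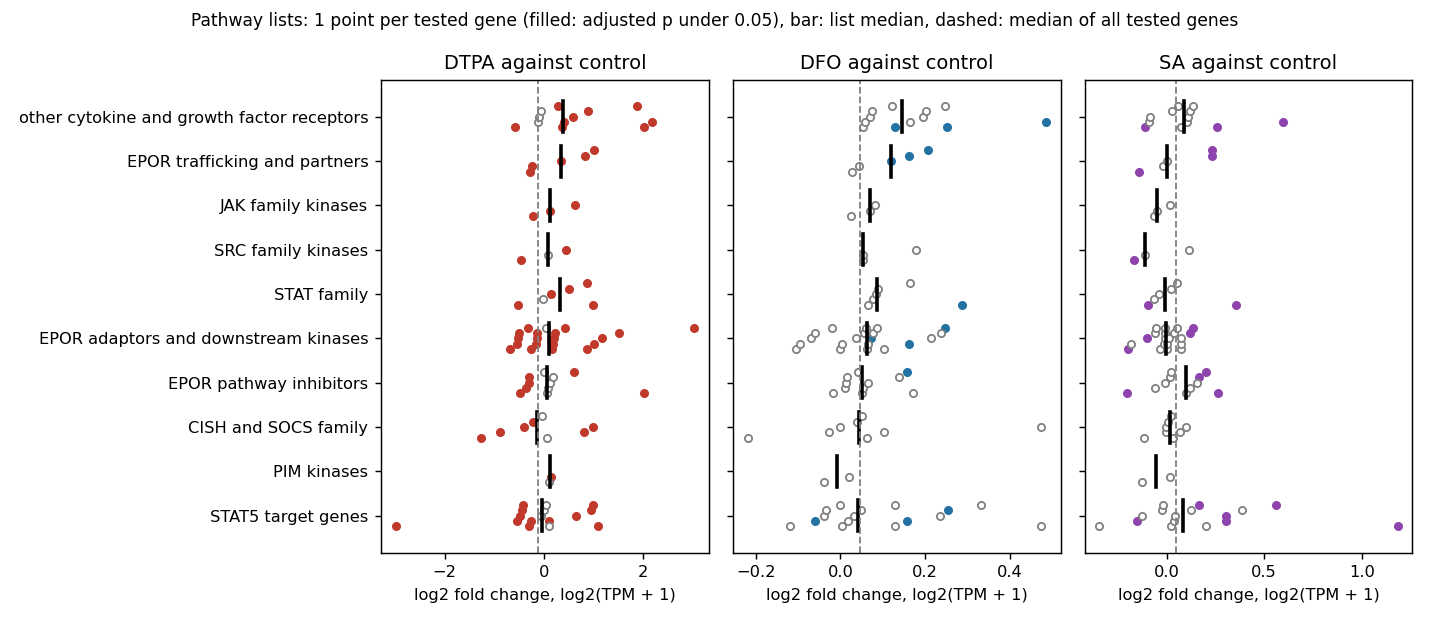
Log2 fold change on the log2(TPM + 1) scale (x axis, with its own range in each panel) of the tested genes of 10 pathway lists for DTPA, DFO and SA against control; each point is 1 gene, filled where the adjusted p is under 0.05, the bar is the list's median and the dashed line the median of all tested genes. With DTPA the adaptors and kinases have a median of 0.099 and the STAT5 targets one of -0.035; most points of the DFO and SA panels are open.

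With DFO the calls in these lists on the TPM scale were read against 10.7% called over all tested genes, 8.39% higher and 2.28% lower. The receptors gave 3 higher of 12, the EPOR partners 3 higher of 5, the adaptors and kinases 3 higher of 20, the other inhibitors 1 higher of 11, and the STAT5 targets 2 higher and 1 lower of 16. Spred2, called higher, is counted both among these inhibitors and among these targets. After median-of-ratios scaling the receptors gave 2 higher, the partners 1 higher, the adaptors and kinases 1 higher and 3 lower, the inhibitors 0, and the targets 1 higher and 1 lower. Kit averaged 8.56 ± 0.190 TPM with DFO and 5.83 ± 0.199 TPM in control (log2 fold change 0.48, adjusted p = 0.000119 by limma). Akt1, a kinase below PI3K, averaged 61.3 ± 0.918 TPM with DFO and 51.5 ± 0.692 TPM in control (0.25, adjusted p = 0.00267 by limma). Ccnd2, which encodes cyclin D2, averaged 37.3 ± 0.759 TPM with DFO and 31.1 ± 1.01 TPM in control (0.25, adjusted p = 0.00164 by limma). These 3 calls held in every alternative run.

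With SA the STAT5 targets gave 5 higher and 1 lower of 16 (5 and 3 after median-of-ratios scaling). On the TPM scale 15.4% of all tested genes were higher and 6.74% lower. The targets had a median log2 fold change of 0.084 on that scale, against 0.047 over all tested genes. Trib3, a stress-responsive pseudokinase gene, averaged 26.1 ± 0.731 TPM with SA and 11.0 ± 1.60 TPM in control (1.18, adjusted p = 9.41e-06 by limma). Id1, a transcription regulator, averaged 79.7 ± 5.36 TPM with SA and 53.6 ± 3.13 TPM in control (0.56, adjusted p = 5.39e-05 by limma), and Ccnd2 38.6 ± 0.593 TPM with SA and 31.1 ± 1.01 TPM in control (0.30, adjusted p = 0.000158 by limma). The receptors gave 2 higher and 1 lower of 12, the partners 2 and 1 of 5, the adaptors and kinases 2 and 2 of 20, and the other inhibitors 3 and 1 of 11. After median-of-ratios scaling the partners gave 1 higher and 1 lower, the adaptors and kinases 4 lower and the inhibitors 2 and 2.

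Among the inhibitors and receptors, SA lowered Inpp5d and Csf2rb and raised Kit and Sh2b3, and DTPA, tested against the same control libraries, gave the opposite sign for Inpp5d, Csf2rb and Sh2b3. Inpp5d averaged 58.9 ± 1.68 TPM with SA and 67.9 ± 0.219 TPM in control (log2 fold change -0.20, adjusted p = 0.000427 by limma). Csf2rb averaged 921 ± 24.9 TPM with SA and 1016 ± 23.9 TPM in control (-0.14, adjusted p = 0.0017 by limma). Kit was higher with SA, at 9.34 ± 0.302 TPM, against 5.83 ± 0.199 TPM in control (0.60, adjusted p = 5.33e-06 by limma). Sh2b3, which encodes the JAK2 inhibitor LNK, averaged 63.9 ± 2.28 TPM with SA and 55.4 ± 0.383 TPM in control (0.20, adjusted p = 0.00043 by limma), and 44.6 ± 0.734 TPM with DTPA (-0.31, adjusted p = 1.5e-06 by limma).

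Erythroid marker genes moved beside the members. With DTPA 8 of 12 fell, 2 rose and 2 did not pass, with DFO 7 fell, 1 rose and 4 did not pass, and with SA 7 fell and 5 did not pass. On the TPM scale 42.1% of all tested genes were lower with DTPA, 2.28% with DFO and 6.74% with SA. With libraries rescaled by the median of ratios, 6 were lower and 3 higher with DTPA, 7 lower and 1 higher with DFO, and 9 lower with SA. Gata1 averaged 1058 ± 25.5 TPM with DTPA and 2501 ± 68.6 TPM in control (log2 fold change -1.24, adjusted p = 5.6e-12 by limma), and reads of the GATA1 transgene and of the gene cannot be told apart in this row. Slc4a1, which encodes the red cell anion exchanger band 3, averaged 45.5 ± 3.32 TPM with DTPA and 718 ± 33.4 TPM in control (-3.95, adjusted p = 6.96e-14 by limma). The 2 that rose with DTPA were the globin gene Hbb-bs, at 26214 ± 1077 TPM with DTPA and 19234 ± 1307 TPM in control (0.45, adjusted p = 2.9e-05 by limma), and Alas2, the first enzyme of erythroid heme synthesis, at 3002 ± 10.3 TPM with DTPA and 2268 ± 17.9 TPM in control (0.40, adjusted p = 8.26e-10 by limma). The part of these shifts in the values of Epor and the other members was not tested.

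For each member the 2 genes with the most similar profile over the 12 libraries were found, by the root mean square difference of centred log2(TPM + 1) values, among at least 7796 genes averaging 5 TPM or more. For Epor they were Rpia, which encodes an enzyme of the pentose phosphate pathway, and Hs6st1, which encodes a heparan sulfate sulfotransferase. Rpia differed from the Epor profile by 0.040 on the log2 scale, with 75.8 ± 0.691 TPM with DTPA, 146 ± 1.51 with DFO, 134 ± 3.46 with SA and 145 ± 3.03 in control. For Stat5a they were Crtc3 and Rps9, for Lyn Itgb1 and Stk25, and for Cish Grpel1 and Unc50. For Jak2 they were Kdm6a and Usp47, for Stat5b Chd8 and Usp19, for Pim1 Zfand6 and Usp19, for Socs2 Rpl41 and Cep170, and for Socs3 Ccdc34 and Cdk5rap2. The difference was between 0.022 for Kdm6a and 0.13 for the neighbours of Socs3, and all profiles share the same libraries. Measured the same way, the members' own variation was 0.39 for Epor and 0.54 for Socs3, but 0.045 for Socs2, 0.059 for Stat5b and 0.064 for Pim1, whose profiles are nearly flat.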

How the data were processed

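Per the labels' protocols, mRNA of 12 G1E-ER4 samples was made into stranded libraries. Trimmomatic 0.33, FastQC, HISAT2 2.1.0, featureCounts and edgeR were used with build mm10, per the submitters' processing notes; the sources used here do not give settings. The authors deposited TPM values, 1 table of 55487 rows per library. Sample titles gave groups and replicate numbers; a protocol label of the SA samples names DFO instead, and the title was used. Of the rows, 234 carry 1 of 114 repeated symbols, of which the most abundant was used under that symbol; no member is among them. Positions and exon lengths came from GENCODE M21, and promoter windows from RefSeq.

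The 11920 genes that reached 1 TPM in 3 or more libraries were fitted on log2(TPM + 1), which understates changes of low genes, with limma 3.58.1 (R 4.3.3): all 12 libraries, 1 mean per group, a mean-variance trend, and Benjamini-Hochberg adjustment per comparison, threshold 0.05. Depth, as recovered reads on the symbols with a unique exon length, was 19860144 to 24329311. Replicates differed beyond sampling noise (chi-square divided by its degrees of freedom, 2.036 to 5.61), no pair of libraries was identical, and each counted as 1 replicate. The members and the 14 gene lists were chosen with earlier results of these data known. Beside the members, the rule for named genes took up to 3 called genes per list and comparison that averaged 5 TPM or more in 1 of the groups and had the largest absolute log2 fold change, and 2 genes of similar profile per member. Some of these names, and calls that other settings end, were left out for length. Alternatives were median-of-ratios scaling, trimmed-mean scaling (trimming 30% of ratios and 5% of means per end), a pseudocount of 0.1 or 5, a filter of 5 TPM or none, the 6 libraries compared alone, a replicate block and each library left out; limma's voom on recovered reads (at least 10 in 3 libraries), all alternatives for genes outside the members, list counts without genes that reach 1 TPM in a single group, and erythroid marker sums without globins were added after the data were seen. The fit was tested on simulated data. Tables and plots used Python 3.11.15, numpy 2.4.6, pandas 2.3.3, scipy 1.17.1 and matplotlib 3.10.9.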

Additional observations from a re-analysis of the deposited data

How the results depend on the processing

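Of 804 values of the members under the alternatives, 739 kept their direction and side of the threshold, 18 lost a call, 3 gained one and 44 changed sign; of 975 values of the other named genes, 880 kept both, 95 lost the call and 0 changed sign. The 3 calls gained without a change of sign are those of Socs2 with DTPA against control given in the text, and 4 of the sign changes, also of Socs2, gained a call. Losses fell on Epor with SA against control, Epor with DFO against SA, and Jak2 and Stat5b with DTPA against DFO or SA. The number of all genes called for DFO against control was 1272, and 802 with only the 6 libraries compared; leaving out a library gave 840 to 960, lowest without a DFO library. The number of members called for DFO against SA was 2, and 1 to 2 with a library left out, the lower number without DFO replicate 2 or 3 or SA replicate 2 or 3. With a pseudocount of 5 the log2 balance of Stat5a over Stat5b was 0.60 for DTPA, 0.17 for DFO and 0.24 for SA against control, which follows from the larger constant added to the lower gene.

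Sign changes concerned values that had not passed on the TPM scale. For DFO against control, median-of-ratios scaling gave -0.048 for Epor, -0.029 for Jak2, -0.0015 for Lyn and -0.035 for Pim1, trimmed-mean scaling -0.044 for Epor, -0.025 for Jak2 and -0.030 for Pim1, and voom -0.014 for Epor. For SA against control, median-of-ratios scaling gave -0.039 for Jak2, -0.0054 for Stat5b, -0.023 for Cish, -0.038 for Socs3 and -0.040 for Pim1, trimmed-mean scaling -0.034 for Jak2, -0.00029 for Stat5b, -0.018 for Cish, -0.033 for Socs3 and -0.035 for Pim1, and voom -0.011 for Socs3. None of these passed. Socs2 changed sign and was called higher with DTPA than with DFO with the median-of-ratios factors (0.14, adjusted p = 0.00684 by limma) and the trimmed-mean factors (0.13, adjusted p = 0.00955 by limma). Against SA the same factors gave 0.18 (adjusted p = 0.00152 by limma) and 0.17 (adjusted p = 0.00215 by limma); voom gave 0.058 and 0.089, not past the threshold. Voom gave -0.00026 for Pim1 with DFO against SA. These scalings bring the median of all genes near 0.

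With 1 library left out, values ran from -0.0037 to 0.019 for Epor, -0.0017 to 0.053 for Jak2 and -0.020 to 0.011 for Cish (DFO against control), from -0.0087 to 0.046 for Jak2 and -0.097 to 0.070 for Socs3 (SA against control), from -0.014 to 0.014 for Socs2 (DTPA against SA), and from -0.0037 to 0.030 for Stat5b, -0.017 to 0.031 for Pim1 and -0.013 to 0.029 for Jak2 (DFO against SA).

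Same-numbered libraries of different groups did not deviate together (correlations between -0.043 and 0.053 over 18 pairs, against -0.062 to 0.057 over 36 pairs of different numbers). No shared shift by replicate number was thus seen, but correlations cannot show whether same-numbered cultures were handled together. With the replicate number as a block, 7747, 1058 and 2433 genes were called for DTPA, DFO and SA against control, 7793 for DTPA against DFO, 7896 for DTPA against SA and 1413 for DFO against SA; the calls of members changed only for Stat5b with DTPA against DFO (0.075, adjusted p = 0.0786 by limma). Depth limits Socs3, with 17 to 95 reads per library.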

Other observations

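Several genes of the pathway were listed at 0 in all 12 libraries, among them the family members Stat4, Pim3 and Blk, the adaptors Plcg2 and Syk, the receptor gene Insr, and the STAT5 targets Ccnd1 and Bcl6. The genes for the ligands, Epo and Kitl, were also listed at 0 in every library; both were looked up after values were seen. A listing at 0 in these files shows only that no read was assigned to the row.

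Ribosomal protein genes held between 10.3% and 10.8% of TPM with DTPA, 8.05% to 8.10% with DFO, 8.46% to 8.66% with SA and 7.18% to 7.37% in control, and the globin genes 4.96% to 5.89% with DTPA, 2.44% to 2.54% with DFO, 1.97% to 2.18% with SA and 3.43% to 3.97% in control. Because TPM sums to a fixed total, such shares enter the TPM of every member.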
